A study of Homo sapiens with 4 samples.

Results

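The zinc finger genes of chromosome 19 are the protein-coding RefSeq genes of this chromosome whose symbol is ZNF followed by a number, with at most 1 letter after it. There were 246 of them among 19970 protein-coding genes of chromosomes 1 to 22 and X, and the other 1205 protein-coding genes of chromosome 19 served for comparison. Enhancer activity was measured by STARR-seq, an assay in which pieces of the genome are cloned into a reporter plasmid so that a piece acting as an enhancer raises the amount of its own RNA. The fragments and the recipient cells were both of MDA-MB-231, an established human breast cancer cell line. Cells were kept with 10 µM SHP1705, which the submitters call a CRY stabilizer, with 100 nM of the proteasome inhibitor MG132, with both drugs (the combination), or with DMSO as the control. Drugs were added before the plasmid library, and RNA was taken 8 h after transfection. Each treatment gave 1 library and 1 list of peaks, so no spread between replicates exists and no p-value is given. Peak lists of plasmid fragments do not measure the expression of marker genes, so the cell line label was not checked against markers.

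A C2H2 zinc finger folds around a zinc ion held by a pair of cysteines and a pair of histidines, and strings of such fingers read DNA sequence. Many of the chromosome 19 genes arose by tandem duplication and encode KRAB zinc finger proteins, in which the KRAB domain recruits the corepressor TRIM28 (KAP1) to transposable elements and other targets. In many of these genes 1 large exon at the 3′ end encodes all the fingers. Neighbouring copies can be very alike in sequence, and how the alignment treated reads that match several copies is not given in the sources used here.

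The libraries held 118324303 fragments with SHP1705, 27289266 with MG132, 28331486 with the combination and 29717604 with DMSO. On chromosome 19 this gave 3823 peaks with SHP1705, 2130 with MG132, 1848 with the combination and 1641 with DMSO. The narrowest peak that could be called was 299 bp with SHP1705, 354 bp with MG132, 355 bp with the combination and 346 bp with DMSO. A pileup is the number of fragments that cover the summit of a peak, and it is given below per 1000000 fragments of its library. No library of the input plasmids was used in the peak calls, so the abundance of a fragment in the plasmid pool cannot be told apart from its activity. Intervals in brackets beside a share are 95% Wilson intervals. Those of a ratio of densities are 95% Poisson intervals on the log scale, and those of a median come from order statistics. All cover counting error only.

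In the full lists nearly every zinc finger gene held a peak with SHP1705, while about as many as among other genes did so with DMSO. Of the 246 genes, 237 (96.3%) held a peak summit with SHP1705, 127 (51.6%) with MG132, 96 (39.0%) with the combination and 84 (34.1%) with DMSO. Among the other protein-coding genes of the chromosome the shares were 66.6% with SHP1705, 37.3% with MG132, 34.6% with the combination and 29.9% with DMSO. The zinc finger genes are longer, with a median of 23151.5 bp against 12763 bp. Restricting both sets to genes of 5 kb to 50 kb left the difference with SHP1705, where 207 of 215 zinc finger genes held a summit (96.3%, 92.8 to 98.1) against 609 of 870 others (70.0%, 66.9 to 73.0). In MG132 the same restriction gave 104 of 215 zinc finger genes (48.4%, 41.8 to 55.0) and 333 of 870 others (38.3%, 35.1 to 41.6). In the combination it gave 35.8% (29.7 to 42.4) and 34.0% (31.0 to 37.2). In DMSO it gave 62 of 215 zinc finger genes (28.8%, 23.2 to 35.2) and 263 of 870 others (30.2%, 27.3 to 33.4). The intervals of the 2 sets are apart for SHP1705 and for MG132, and overlap for the combination and for DMSO. Among all 19970 protein-coding genes, not matched for length, the shares were 75.9% with SHP1705, 51.6% with MG132, 45.7% with the combination and 42.1% with DMSO. The MG132 share of zinc finger genes was thus that of all genes, and only their SHP1705 share stood above it.

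**Figure D1:**
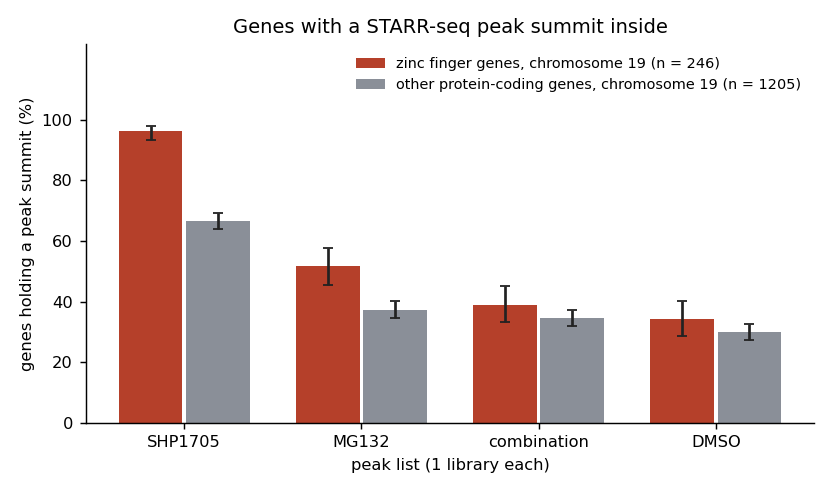
Share of genes (%) that held at least 1 peak summit in each list, for the 246 zinc finger genes of chromosome 19 (red) and the other 1205 protein-coding genes of the chromosome (grey). Bars start at 0 and error lines are 95% Wilson intervals; the red bar of SHP1705 stands at 96.3% and the red bar of DMSO at 34.1%.

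Counted per length of gene, the summits of the full lists were about as dense in the zinc finger genes as in the other genes of the chromosome. There were 578 summits with SHP1705, 207 with MG132, 135 with the combination and 130 with DMSO, on 7.04 Mb of zinc finger gene. These are 82.1 summits per Mb with SHP1705, 29.4 with MG132, 19.2 with the combination and 18.5 with DMSO. In the other genes the density was 77.1 per Mb with SHP1705, 28.3 with MG132, 23.5 with the combination and 19.2 with DMSO. The ratio of zinc finger genes over other genes was 1.06 with SHP1705 (0.970 to 1.17), 1.04 with MG132 (0.890 to 1.21), 0.815 with the combination (0.676 to 0.983) and 0.963 with DMSO (0.793 to 1.17). In the full lists only the interval of the combination excludes 1. With the strongest 47822 peaks of each list the SHP1705 density was 41.1 per Mb, its ratio 0.778 and the MG132 ratio 1.26. Both ratios lay outside the intervals of the full lists, and no intervals are given for them. In the full list, the high share of genes with a SHP1705 peak stood beside a density of summits close to that of the other genes. At equal list length the SHP1705 density was below that of the other genes. A median zinc finger gene held 2 summits with SHP1705, 1 with MG132, 0 with the combination and 0 with DMSO.

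Between each drug and DMSO, genes changed their status in both directions. In SHP1705, 158 zinc finger genes held a summit and had none with DMSO (64.2%, against 41.2% of the other genes), and 5 showed the reverse (2.03%, against 4.48%). In MG132, 75 genes held a summit that DMSO lacked (30.5%, against 18.5%) and 32 the reverse (13.0%, against 11.1%). In the combination the counts were 50 genes (20.3%, against 17.3%) and 38 genes (15.4%, against 12.5%). All 3 comparisons use the same DMSO list. The SHP1705 library was also the deepest, which cannot be told apart from the drug. Of its 578 member peaks, 128 (22.1%) were lower per 1000000 fragments than the lowest DMSO peak in these genes, 0.471.

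SHP1705 peaks included many wide ones in zinc finger genes, which the other lists hardly held. The median width of SHP1705 peaks was 827 bp in zinc finger genes (731 to 938 by order statistics), against 514 bp in the other genes (498 to 538). In the remaining lists the median width in zinc finger genes was 431 bp with MG132, 434 bp with the combination and 419 bp with DMSO, close to the 437, 434 and 431 bp of the other genes. Peaks of at least 1 kb made up 251 of 578 SHP1705 peaks in zinc finger genes (43.4%, 39.4 to 47.5) and 23.6% of those in other genes (21.7 to 25.6). In zinc finger genes there were 3 such peaks with MG132, 0 of 135 with the combination, which allows a share of up to 2.22% (3 counts), and 2 with DMSO. Counted by gene, 199 of 246 zinc finger genes (80.9%, 75.5 to 85.3) held a wide SHP1705 peak, against 32.8% of the other genes (30.2 to 35.5). Gene length was not matched in this count, and the zinc finger genes are longer by their median. The background share of genes with a wide peak was 2.41% with MG132, 2.24% with the combination and 1.91% with DMSO.

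By their medians, the wide peaks were taller than the narrower ones within SHP1705. The 251 wide SHP1705 peaks had a median width of 1958 bp, a median pileup of 1.25 per 1000000 fragments and a median fold over the local background of 4.60, the fold being the authors' own value. The 327 narrower SHP1705 peaks had a median width of 459 bp, a median pileup of 0.575 and a median fold of 3.47. Over all peaks in zinc finger genes the median pileup was 0.837 per 1000000 with SHP1705, 5.64 with MG132, 7.94 with the combination and 8.50 with DMSO. In the other genes it was 1.55 with SHP1705, 4.82 with MG132, 6.46 with the combination and 7.22 with DMSO. SHP1705 peaks were thus lower in zinc finger genes than in the other genes by their median intervals (0.744 to 0.887 against 1.44 to 1.70). The median fold in zinc finger genes was 4.04 with SHP1705, 19.5 with MG132, 22.97 with the combination and 24.9 with DMSO, each within its own list. Among the 47822 strongest peaks of each list, SHP1705 had a median width of 1474 bp and a median pileup of 1.34 in zinc finger genes, against 610 bp and 3.25 in the other genes.

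**Figure D2:**
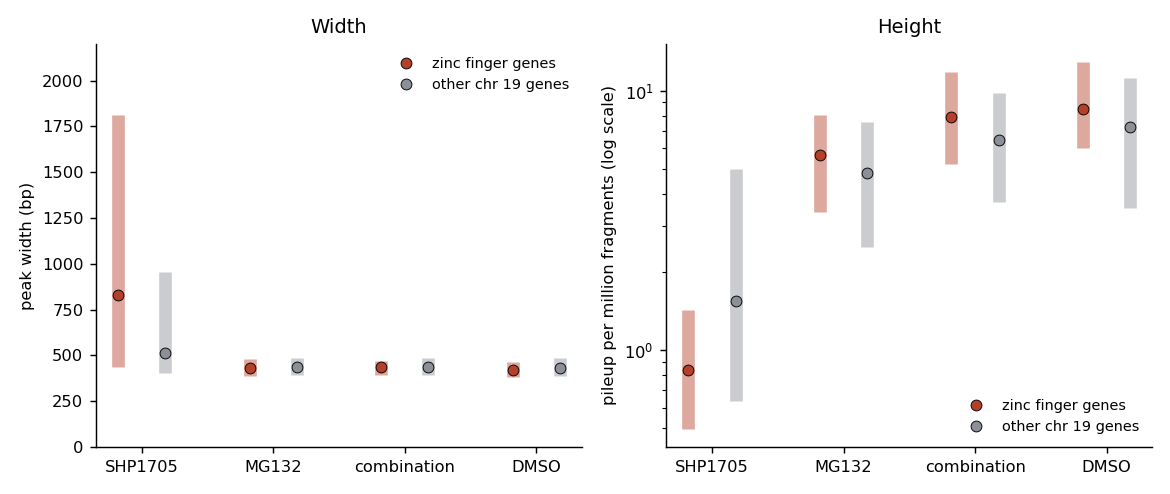
Width of peaks in bp (left) and pileup per 1000000 fragments on a log axis (right) for peaks inside zinc finger genes (red) and other protein-coding genes of chromosome 19 (grey) in each list. Points are medians and bars span the middle 50% of peaks; the SHP1705 peaks in zinc finger genes have a median width of 827 bp and a median height of 0.837.

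The wide peaks can be seen gene by gene, in examples chosen for their width after the values were seen. The widest lay in ZNF776, a gene of chr19:57746815-57758148, where the SHP1705 peak covered 4504 bp of its 11334 bp, with its summit 2432 bp from the 3′ end and a pileup of 1.78 per 1000000. ZNF776 also held peaks of 6.01 with MG132 and 7.69 with the combination, and none with DMSO. In ZNF772 a SHP1705 peak of 4480 bp lay on a gene of 7981 bp, with a pileup of 1.10, and no other list had a summit there. ZNF260, which encodes a protein made almost wholly of fingers, held 1 SHP1705 peak of 4080 bp with its summit 2506 bp from the 3′ end and a pileup of 3.71, and none in the other lists.

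Summits of SHP1705 gathered at the 3′ ends of zinc finger genes, and those of the other lists did not. Strand was known for 216 of the 246 genes, and each gene was cut into 10 equal parts. In SHP1705, 141 of 511 summits (27.6%, 23.9 to 31.6) lay in the last part, at the 3′ end, against 27.5% in the other genes. In MG132 the last part held 10.5% of summits in zinc finger genes and 18.1% in other genes. In the combination the shares were 11.0% and 16.8%, and with DMSO 9.17% and 18.9%. An even spread would put 10% in each part. The share at the 3′ end with SHP1705 was thus about the same in both kinds of gene. In the other lists it was lower in zinc finger genes, with intervals that overlap for MG132 (6.82 to 15.8 against 15.2 to 21.5), for the combination (6.55 to 17.9 against 13.7 to 20.5) and for DMSO (5.06 to 16.1 against 15.3 to 23.1).

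**Figure D3:**
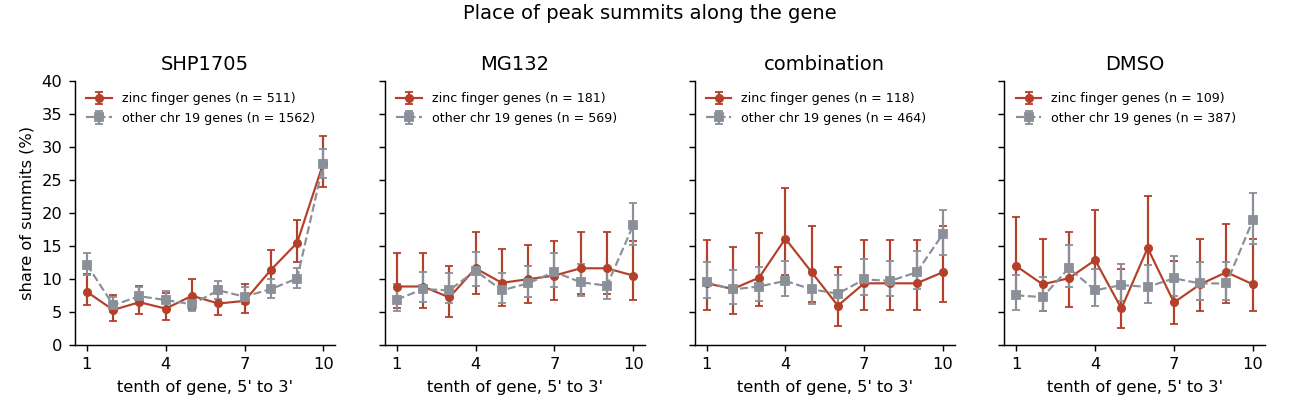
Share of peak summits (%) in each of 10 equal parts of the gene from 5′ to 3′, for zinc finger genes (red circles) and other protein-coding genes of chromosome 19 (grey squares), with 95% Wilson intervals; n is the number of summits in genes of known strand. In SHP1705 the curves reach 27.6% and 27.5% in the last part, and in the other 3 lists the zinc finger genes stay near 10%.

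By distance, 182 of 511 SHP1705 summits (35.6%, 31.6 to 39.9) lay within 3 kb of the 3′ end of a zinc finger gene, against 33.9% in the other genes. The shares were 9.39% against 23.9% with MG132, 9.32% against 23.3% with the combination and 8.26% against 25.1% with DMSO. A fixed distance takes in less of a longer gene, and whether gene length affects these shares was not tested. Within these 3 kb the SHP1705 peaks of zinc finger genes had a median width of 1460.5 bp and a median pileup of 1.07 per 1000000, against 838.5 bp and 4.93 in the other genes. They were wider and lower than the 3′ peaks of other genes. Of the 216 genes with a known strand, 157 (72.7%, 66.4 to 78.2) had such a summit with SHP1705, 19 with MG132, 11 with the combination and 8 with DMSO. The background share of other genes was 53.8% with SHP1705, 13.9% with MG132, 11.4% with the combination and 10.3% with DMSO. In SHP1705 the median width was 460 bp in the first of the 10 parts of a zinc finger gene and 1364 bp in the last, and in the other genes it was 449.5 bp and 777 bp. In DMSO these were 422 bp and 399 bp in zinc finger genes, and 431 bp and 478 bp in the other genes.

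Summits within 1 kb of either end of a zinc finger gene made up 19.4% with SHP1705 (16.4 to 22.8), 10.1% with MG132, 4.44% with the combination and 6.15% with DMSO. In the other genes they made up 31.4% with SHP1705, 16.2% with MG132, 16.2% with the combination and 18.2% with DMSO. At the 5′ side, within 1 kb of the start, lay 5.28% of SHP1705 summits, 3.87% of those of MG132, 0.847% of those of the combination and 4.59% of those of DMSO. In the other genes the starts held 9.48%, 2.99%, 4.31% and 3.10% in that order. Within 1 kb of the 3′ end of a zinc finger gene lay 13.5%, 4.42%, 2.54% and 1.83%. Starts held fewer summits than 3′ ends with SHP1705, and with DMSO they held more, 5 against 2. A window of 1 kb is a small part of most of these genes, so a low share there is no sign that peaks avoid it.

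The promoters of zinc finger genes were examined in windows of 300 bases from RefSeq (GRCh38.p14, 250 bases before and 50 after an annotated start), of which 268 matched 216 of the 246 genes. A peak overlapped 35 windows with SHP1705 (13.1%, against 13.0% of the windows of other genes), 7 with MG132 (2.61%, against 1.33%), 6 with the combination (2.24%, against 1.41%) and 5 with DMSO (1.87%, against 1.09%). The sequences shown are the 3 windows with the tallest SHP1705 peak that covers the whole window, and the ZNF790 window, chosen after its values were seen because a MG132 peak also reached it. They are written from 5′ to 3′ on the strand of the gene, the start of transcription is base 251, and capitals mark the letters CCGGAAG or their reverse complement CTTCCGG, the core bound by ETS factors. ZNF584 is at chr19:58408399-58408698, plus strand. ZNF470 is at chr19:56567218-56567517, plus strand. ZNF841 is at chr19:52094222-52094521, minus strand. ZNF790 is at chr19:36850743-36851042, minus strand.
ZNF584: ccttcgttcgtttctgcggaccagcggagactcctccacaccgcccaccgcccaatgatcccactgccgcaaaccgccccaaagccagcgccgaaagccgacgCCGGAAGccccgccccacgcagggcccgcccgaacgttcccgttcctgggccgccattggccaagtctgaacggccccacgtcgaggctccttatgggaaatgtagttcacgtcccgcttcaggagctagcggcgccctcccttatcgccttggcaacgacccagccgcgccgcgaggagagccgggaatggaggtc
ZNF470: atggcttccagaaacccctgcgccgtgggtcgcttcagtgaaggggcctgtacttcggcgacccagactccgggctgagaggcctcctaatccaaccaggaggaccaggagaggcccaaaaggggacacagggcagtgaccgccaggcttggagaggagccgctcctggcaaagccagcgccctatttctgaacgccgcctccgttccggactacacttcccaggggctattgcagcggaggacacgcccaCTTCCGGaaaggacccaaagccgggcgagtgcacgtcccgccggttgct
ZNF841: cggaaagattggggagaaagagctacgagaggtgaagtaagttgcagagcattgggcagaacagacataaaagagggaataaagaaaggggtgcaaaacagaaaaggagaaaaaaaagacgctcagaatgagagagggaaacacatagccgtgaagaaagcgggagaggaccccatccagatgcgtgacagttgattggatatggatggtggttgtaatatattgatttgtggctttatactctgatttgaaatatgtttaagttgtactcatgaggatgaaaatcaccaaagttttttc
ZNF790: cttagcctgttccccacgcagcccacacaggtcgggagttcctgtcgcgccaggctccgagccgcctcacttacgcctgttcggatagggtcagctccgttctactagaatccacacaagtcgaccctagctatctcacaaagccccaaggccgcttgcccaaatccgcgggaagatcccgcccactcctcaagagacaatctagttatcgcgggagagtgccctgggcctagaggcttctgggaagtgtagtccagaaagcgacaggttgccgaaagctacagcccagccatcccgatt

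The peak over the ZNF584 window, chr19:58405336-58409090, reached 3.38 per 1000000 with SHP1705. That over the ZNF470 window, chr19:56567141-56568044, reached 1.87, and that over the ZNF841 window, chr19:52094075-52095661, reached 1.09. None of these 3 windows was overlapped by a peak of MG132, the combination or DMSO. At ZNF790 the SHP1705 peak reached 0.828 and the MG132 peak 3.33 per 1000000, and the other lists had no peak there. A start of ZNF345 lies on the opposite strand beside it, under the same peaks. The ZNF584 and ZNF470 windows hold the ETS letters, at bases 104 and 252, and the ZNF841 and ZNF790 windows do not.

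Zinc finger promoters were rich in the ETS letters whether or not a peak lay there. CCGGAAG, on either strand, occurred in 109 of 268 windows (40.7%), against 13.3% of the windows of other chromosome 19 genes and 12.8% of 22131 windows of all protein-coding genes. Of the 35 windows with a SHP1705 peak 17 held it (48.6%, 33.0 to 64.4), and of the 233 without one 92 did (39.5%, 33.4 to 45.9). These intervals overlap. The E-box CACGTG, the letters that clock factors bind, occurred in 4.48% of zinc finger windows, 8.13% of the other windows of the chromosome and 8.34% of all windows. The NRF1 motif occurred in 11.2%, 10.0% and 7.40%, and the YY1 letters AANATGGCG in 5.22%, 5.70% and 4.25%. Both strands were searched, overlaps between motifs were not examined, and a match of letters is a description of sequence only.

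Part of the peaks inside zinc finger genes lay on annotated pseudogenes, which are copies of other genes that happen to lie within them. Such peaks were 25 of 578 with SHP1705 (4.33%, 2.95 to 6.31), 10 of 207 with MG132 (4.83%), 9 of 135 with the combination (6.67%) and 7 of 130 with DMSO (5.38%). In the other genes the shares were 1.42% with SHP1705, 1.29% with MG132, 1.73% with the combination and 1.91% with DMSO. Pseudogenes also cover more of the zinc finger genes, 2.14% of their bases against 1.03%. The tallest SHP1705 peak of all the zinc finger genes was one of these. It lay in ZNF44, at chr19:12260096-12260576, on RPL28P5, a copy of the mRNA of a ribosomal protein. Its pileup was 379 per 1000000 with SHP1705, 11.3 with MG132, 7.80 with the combination and 10.7 with DMSO. SHP1705 stood far above the other 3 lists there, which were alike. As the site was picked for its SHP1705 height, that rank is no result.

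The next tallest peaks on pseudogenes were on SNX6P1 and LOC100419307 in ZNF730, on LOC441862 in ZNF534, on PABPN1P2 where ZNF28 and ZNF600 overlap, and on ZNF56P in ZNF506. The ZNF730 region, chr19:23126461-23127808, reached 33.9 per 1000000 with SHP1705, 0.843 with MG132, 0.741 with the combination and 0.841 with DMSO. The ZNF534 peak reached 18.1 with SHP1705, with no summit in that gene with MG132, the combination or DMSO. At PABPN1P2 the values were 16.7 with SHP1705 and 12.7 with the combination, and there was none with MG132 or DMSO. On ZNF56P, a pseudogene of the zinc finger family itself, the values were 3.40 with SHP1705, 36.1 with MG132, 29.0 with the combination and none with DMSO. These sites were picked for their SHP1705 height, so its rank there is no result. How reads were shared between a pseudogene and its parent gene was not tested.

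Only 3 of 941 merged regions with a summit in a zinc finger gene held a peak in all 4 lists (0.319%, 0.108 to 0.933), against 58 of 3165 regions of the other genes (1.83%, 1.42 to 2.36). A region joined peaks of different lists that shared at least 1 bp. Among the zinc finger regions 848 (90.1%) were in 1 list, 80 (8.50%) in 2 and 10 (1.06%) in 3, close to the 89.6%, 7.52% and 1.01% of the other genes. The ZNF44 and ZNF730 regions on pseudogenes were 2 of the 3. The other lay in ZNF254, on no annotated pseudogene, at chr19:24042204-24042715, and reached 0.313 per 1000000 with SHP1705, 3.85 with MG132, 1.34 with the combination and 2.05 with DMSO. At that region SHP1705 was the lowest list. SHP1705 shared 24 regions with DMSO (2.55%, against 4.36% in the other genes), MG132 shared 13 (1.38%, against 2.78%) and the combination shared 5 (0.531%, against 2.40%).

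Away from pseudogenes, the tallest SHP1705 peaks sat near the ends of ZNF358, ZNF428, ZNF580 and ZNF787. The ZNF580 peak also lay inside ZNF581. In what follows a value is the tallest peak inside the gene in that list, and lists can have it at different places. ZNF358 had a peak of 1771 bp, with its summit 1466 bp from the 3′ end, that reached 24.99 per 1000000 with SHP1705. The tallest peak of that gene was 4.94 with the combination, and MG132 and DMSO had none. ZNF428 held its only summit with SHP1705, at 21.7 per 1000000 and 720 bp from the 3′ end. ZNF580 and ZNF581, small neighbouring genes that overlap, shared a peak of 18.99 with SHP1705. In ZNF581 the tallest peak was 7.26 with MG132 and 18.5 with DMSO, and the combination had none. ZNF787 reached 12.3 with SHP1705, 4.58 with MG132 and 12.5 with the combination, with none with DMSO. In SHP1705 its summit lay 403 bp from the 3′ end. All of these genes were picked for their SHP1705 height, so the rank of SHP1705 in them is no result. SHP1705 was the only list with a summit in ZNF428 and ZNF580. In ZNF581 DMSO came near its height and in ZNF787 the combination slightly passed it, both at other places in the gene. The DMSO peak of ZNF581 was at chr19:55637652-55638117 and the SHP1705 peak at chr19:55642286-55643410. The combination summit of ZNF787 lay 1547 bp from the 5′ end.

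In MG132, the combination and DMSO the tallest peaks lay in other genes. ZNF561 had the tallest MG132 peak, at chr19:9609964-9610405 with 49.2 per 1000000, and its tallest peak with SHP1705 was 3.98, with none with the combination or DMSO. That narrow MG132 peak lay inside a SHP1705 peak of 3679 bp. ZNF57 had 37.9 with MG132 and 0.744 with SHP1705, and ZNF568, whose mouse counterpart represses a placental form of Igf2, had 31.0 with MG132, 0.778 with SHP1705, 17.4 with the combination and 15.1 with DMSO. ZNF808, known for a role in the development of the human pancreas, had 24.7 with MG132, 0.794 with SHP1705, 7.91 with the combination and 7.17 with DMSO. These genes were picked for their MG132 height, and the median SHP1705 peak was lower per 1000000 than that of each other list, so the order of these lists is no result.

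The combination was highest at ZNF845, with 35.0 per 1000000, against 1.75 with SHP1705, 17.5 with MG132 and none with DMSO. Its SHP1705 and combination peaks lay on the pseudogene LOC107987264. ZNF90 had 34.7 with the combination, 9.23 with MG132 and 9.99 with DMSO, and no SHP1705 summit. ZNF729 had 34.3 with the combination, 2.68 with MG132, 0.837 with SHP1705 and 31.2 with DMSO. ZNF529 had 34.0 with the combination, 6.85 with MG132, 1.21 with SHP1705 and 20.3 with DMSO. ZNF430 had 32.6 with the combination, 4.65 with MG132 and 1.21 with SHP1705, with none with DMSO. These 5 genes were picked for their combination height, and DMSO had no summit in ZNF845 and ZNF430.

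DMSO was highest at ZNF714, which had 6.29 per 1000000 with SHP1705, 8.61 with MG132, none with the combination and 52.2 with DMSO. This gene and those that follow were picked for their DMSO height, so the rank of DMSO in them is no result. ZNF208 had 1.70 with SHP1705, 15.9 with MG132, none with the combination and 37.6 with DMSO. ZNF676 had 0.279 with SHP1705, 15.9 with MG132, 4.80 with the combination and 36.7 with DMSO. ZNF91, a KRAB protein known to repress SVA retroelements, had 2.27 with SHP1705, 21.99 with MG132, 15.7 with the combination and 36.3 with DMSO. The MG132 and DMSO peaks of ZNF91 lay inside the span of its SHP1705 peak, chr19:23358246-23362552. With ZNF729, all 5 of the tallest DMSO genes lay in the cluster nearest the centromere. That cluster held 37 of the 246 zinc finger genes and 42 of the 130 DMSO summits. Of the genes picked for their combination height, ZNF90, ZNF729 and ZNF430 lay there as well, and ZNF845 and ZNF529 did not.

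**Figure D4:**
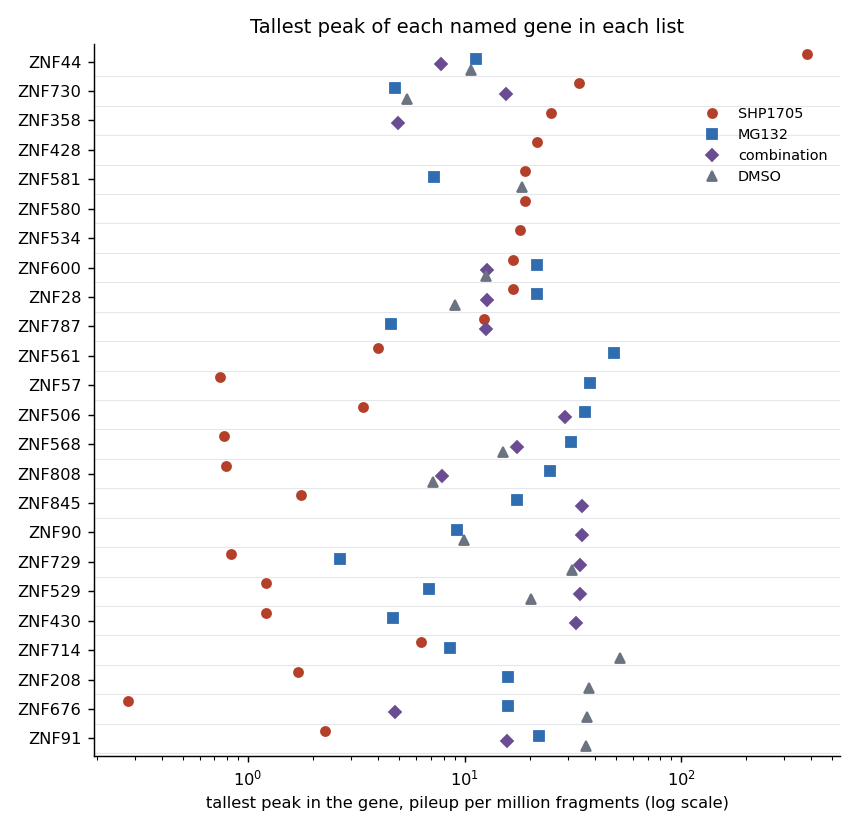
Tallest peak in each gene as pileup per 1000000 fragments (log axis) for the 10 genes highest with SHP1705 and the 5 highest in each of MG132, the combination and DMSO; a list with no summit in the gene has no point. ZNF44 reaches 379 with SHP1705, while in most of the lower rows the SHP1705 circle is the leftmost point.

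The genes with most summits were ZNF536 with 36 over the 4 lists, ZNF69 with 19, ZNF44 with 18, ZNF83 with 17 and ZNF600 with 15. ZNF536, a brain-expressed repressor of neuronal differentiation, is also the longest, at 487995 bp. It held 11 summits with SHP1705, 13 with MG132, 5 with the combination and 7 with DMSO, and its tallest peaks were 1.32, 9.09, 9.21 and 11.4 per 1000000 in that order. ZNF69 held 15 summits with SHP1705, 3 with MG132, 0 with the combination and 1 with DMSO. The longest gene thus had most MG132 summits, and ZNF69, of 92441 bp, most SHP1705 summits. ZNF69 contains ZNF700 and overlaps ZNF763, each with 4 SHP1705 summits, and a summit in an overlap counted for each gene. Only ZNF726 and ZNF296 had no summit in any list (0.813%, against 249 of the 1205 other genes, 20.7%). A further 7 had summits in other lists and none with SHP1705, namely ZNF556, ZNF878, ZNF442, ZNF90, ZNF66, ZNF98 and ZNF728. Together 9 zinc finger genes lacked a SHP1705 summit, against 403 of the other genes, which are shorter by their median.

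The genes formed 10 clusters of at least 5 members with gaps under 500 kb, which took in 232 of the 246. Their density of SHP1705 summits ran from 46.2 to 137 per Mb of zinc finger gene. The lowest was in the cluster from ZNF101 to ZNF254 (chr19:19668153-24129968), the one nearest the centromere, with 37 genes. This cluster had 46.2 summits per Mb with SHP1705, 23.1 with MG132, 18.5 with the combination and 27.7 with DMSO, so it combined the lowest SHP1705 density with the highest DMSO density of the 10. It held 5 of the 9 genes without a SHP1705 summit, and 36 pseudogenes overlapped its genes. The highest SHP1705 density was in the cluster nearest the end of the long arm, from ZNF264 to ZNF446 (chr19:57191500-58489533). It had 137 per Mb with SHP1705, 32.3 with MG132, 24.99 with the combination and 17.6 with DMSO, and all 43 of its genes held a SHP1705 summit.

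In each of the 10 clusters SHP1705 summits were denser inside the zinc finger genes than in the rest of the cluster. The same held for 5 clusters with MG132, 5 with the combination and 6 with DMSO. In the cluster from ZNF264 to ZNF446 the density outside these genes was 55.0 per Mb with SHP1705 and 22.7 with DMSO. In the cluster nearest the centromere it was 25.1 per Mb with SHP1705 and 12.2 with DMSO. The rest of a cluster holds other genes as well as intergenic sequence.

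**Figure D5:**
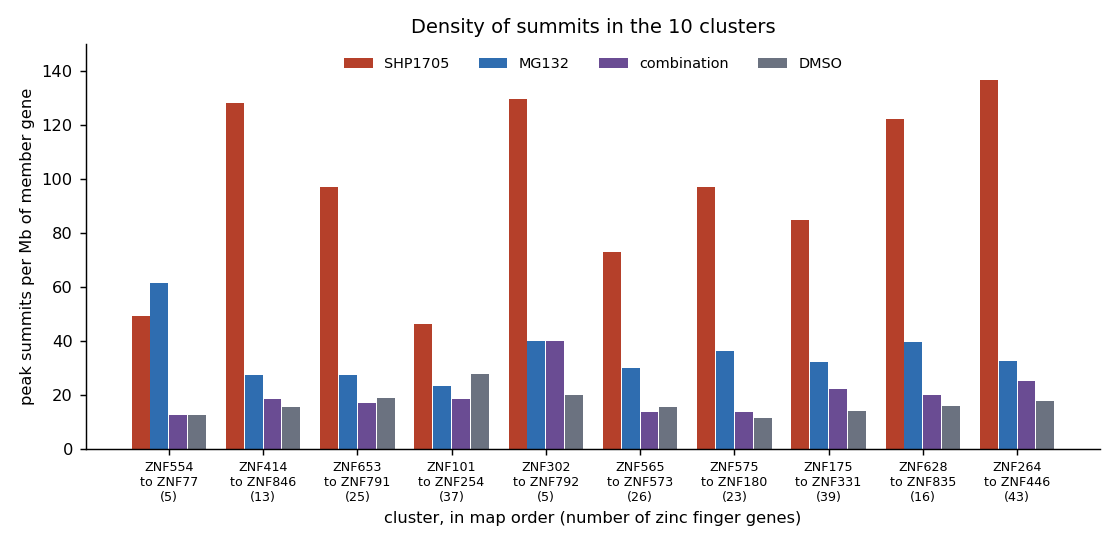
Peak summits per Mb of zinc finger gene in each list (bars start at 0) for the 10 clusters in map order, named by their first and last gene with the number of genes in brackets. SHP1705 has 46.2 in the cluster from ZNF101 to ZNF254 and 137 in the cluster from ZNF264 to ZNF446, where DMSO has 27.7 and 17.6.

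Genes of the same symbol rule on other chromosomes were also nearly all covered with SHP1705, by narrower peaks. Of 263 such genes 91.6% held a summit with SHP1705, 52.9% with MG132, 43.7% with the combination and 37.3% with DMSO. Their SHP1705 peaks had a median width of 580 bp and a median pileup of 1.03 per 1000000, and 35.6% were at least 1 kb wide, against 43.4% in the chromosome 19 genes. The density of summits in the chromosome 19 genes was 1.45 times theirs with SHP1705, 1.45 times with MG132, 1.31 times with the combination and 1.42 times with DMSO.

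Most of the corepressor genes through which KRAB proteins silence DNA held a peak in each list. Of 20 such genes 20 held a summit with SHP1705, 12 with MG132, 14 with the combination and 15 with DMSO, against 75.9%, 51.6%, 45.7% and 42.1% of all 19970 genes in that order. The share was above that of all genes in each list, and gene length was not matched. TRIM28, the corepressor that binds the KRAB domain, lies on chromosome 19 beyond the last cluster (chr19:58544064-58550715). Its tallest peak was 25.8 per 1000000 with SHP1705, 0.879 with MG132, 1.02 with the combination and 1.31 with DMSO, so all 4 lists had one and SHP1705 was highest. From a list of 30 zinc finger genes with other names, most of them of the C2H2 kind, 23 were found on chromosome 19. ZFP36, which encodes a CCCH and not a C2H2 zinc finger protein, is among them and held a summit in each list. Of these 23, 19 held a summit with SHP1705, 10 with MG132, 10 with the combination and 6 with DMSO. The shares of the other protein-coding genes of the chromosome, which include them, were 66.6%, 37.3%, 34.6% and 29.9% in that order. PEG3 lies within ZIM2, so its summits counted for both. The imprinted gene PEG3 had 2.32 with SHP1705, none with MG132, 9.99 with the combination and 7.23 with DMSO.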

How the data were processed

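Peaks of 4 libraries, 1 per treatment, were analysed in hg38 coordinates. Per the submitters' processing notes, the tools were Bowtie2, MACS2, FastQC and Trimmomatic. Peak calling with MACS 2.2.6 was run separately on each library by the authors, per the file headers. Duplicates were kept, the q limit was 0.01, and the local background spanned 10000 bp with no control sample. Pileup, a signal, was deposited by the authors without scaling to depth. Fold enrichment, a ratio, and the −log10 p-values and q-values were used as the authors deposited them. Fragment totals come from the headers.

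From these, summits were assigned to genes of the RefSeq table (GRCh38.p14), and strand came from its promoter table. Pileups were divided by the fragment total and multiplied by 1000000. A summit inside a zinc finger gene counted there and not among other genes. Place along the gene used summits inside 1 gene of known strand. Peaks of different lists sharing 1 bp were merged. Counting was checked on simulated peaks. Python 3.11.15, pandas 2.3.3 and scipy 1.17.1 were used. With 1 library per treatment no test was made. Named genes were the 10 with the tallest SHP1705 peak, the 5 tallest of each other list, the 5 with most summits, those with none, those in all 4 lists and the 5 tallest SHP1705 peaks on pseudogenes; the wide-peak examples and ZNF790 were picked after their values were seen. Members and lists were chosen with earlier results of these data known.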

Additional observations from a re-analysis of the deposited data

How the results depend on the processing

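No paired analysis was possible because each treatment has 1 library and the labels give no replicate numbers. With the 47822 strongest peaks of each list, SHP1705 had 41.1 summits per Mb of zinc finger gene, its density ratio to other genes was 0.778 and that of MG132 1.26. In the same setting SHP1705 had 24.2% of member summits within 1 kb of a gene end, 43.8% within 3 kb of the 3′ end, a median width of 1474 bp and a median pileup of 1.34 per 1000000, and MG132 a median pileup of 7.11. The settings for the 3 kb share, for genes with a wide peak and for zinc finger genes of 5 kb to 50 kb were chosen after seeing the data. Against other genes of 5 kb to 50 kb the SHP1705 density ratio was 0.922. Against the same symbol rule on other chromosomes the ratio was 1.45 with SHP1705, 1.45 with MG132, 1.31 with the combination and 1.42 with DMSO. Within 500 bp of an end lay 9.52% of SHP1705 and 6.28% of MG132 summits. The number of genes with a wide SHP1705 peak was 166 at equal list length, against 199 in the full list. A −log10 q of at least 5, a common minimum width of 355 bp, any overlap in place of the summit, symbols without a letter, peaks off pseudogenes, summits inside pseudogenes and a stricter overlap for merging moved no count over 1.5 times and no share or median outside its interval. The depth of SHP1705 and the absence of replicates and of an input library limit every comparison between lists.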
